A study of Mus musculus with 14 samples.

Results

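Regions enriched with an antibody against Cas9 were followed to H3K4me3 peaks, the sites where an antibody that marks promoters had also given a peak. The study covers mouse cells that overexpress Myc, per its design text, and it profiled them by chromatin immunoprecipitation and sequencing. Neurospheres (floating cultures of neural cells, genotype p53-/-;p18-/-) labelled Suz12F2 and U6 gave the Cas9 antibody islands, an island being a run of enriched windows. Tumour cells labelled Cas9 (p53-/-;p18-/-) gave the H3K4me3 peaks, and the Ezh2 knockout tumour cells carry Ezh2-/- in addition. Gfi1 antibody islands came from neurospheres labelled Suz12F2 and Cas9, both p53-/-;p18-/-. Each group held 1 library, so the values carry counting intervals only and no test across samples was possible. The labels describe all samples as retrovirally infected tumorsphere cells, sorted for RFP+/GFP+, expanded in culture and implanted into the cortex of CD-1 nu/nu mice, and leave U6, F1 and F2 unexplained.

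The 1048 Suz12F2 islands and the 2966 U6 islands merged into 3562 regions, of which 1785 shared at least 1 bp with an H3K4me3 peak. These 1785 regions, 50.1% of the 3562, are the members. Of them 347 held islands of both labels, 327 of Suz12F2 only and 1111 of U6 only. They lay at 2360 of the 14363 H3K4me3 peaks of Cas9 tumour cells, or 16.4%. A peak was given the class of the regions it met, and a peak that met islands of both labels counted as both. This put 527 peaks (3.67% of all H3K4me3 peaks) in the class of both labels, 417 (2.90%) in Suz12F2 only and 1416 (9.86%) in U6 only. All positions are in build mm9. No gene annotation of that build was used here, so the peaks were not checked against known gene starts and are called H3K4me3 peaks, not promoters of named genes.

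Cas9 is a bacterial nuclease that finds its DNA site through a guide RNA, and an antibody against it pulls down chromatin where the protein sits, together with whatever chromatin the antibody recovers without it. H3K4me3 marks active and poised promoters, and H3K27ac marks active promoters and enhancers. H3K27me3 is written by Polycomb repressive complex 2, in which Ezh2 is the catalytic subunit and Suz12 a core subunit. A promoter that carries H3K4me3 and H3K27me3 at once is called bivalent and is usually silent or weakly transcribed, often at developmental regulators. Gfi1 is a zinc finger repressor that recruits histone deacetylases and demethylases.

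The Cas9 antibody lists were short and differed in how often they met H3K4me3. Of the Suz12F2 islands 671, or 64.0% (61.1 to 66.9, Wilson 95% interval for counting error, as in all brackets below), lay at an H3K4me3 peak, and of the U6 islands 1459, or 49.2% (47.4 to 51.0). When the U6 list was trimmed by score to 1048 islands, its share was 59.6% (56.6 to 62.6). Another Cas9 antibody list, from p53-/-;p18-/- neurospheres labelled Suz12F1, was also short, with 916 islands, but 7 of them, or 0.764% (0.371 to 1.57), lay at an H3K4me3 peak. The Suz12F1 islands met 8 of all H3K4me3 peaks (0.0557%) and 1 of the 1785 members. That member lay at chr14:61789601-61793600 and is named after its value was seen.

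Shorter islands met H3K4me3 more often than longer ones, in both lists. Each list was divided at its quartiles of length into 4 classes, islands of equal length staying together. Of the 299 islands of the shortest class in Suz12F2, 78.6% (73.6 to 82.9) lay at a peak, and of the 831 in U6, 60.4% (57.0 to 63.7). In the longest class it was 43.5% (37.3 to 49.8) of 237 islands in Suz12F2 and 37.6% (34.0 to 41.3) of 676 in U6. Islands at H3K4me3 peaks had a median length of 2600 bp in Suz12F2 and 2000 bp in U6, and islands away from peaks 4000 bp and 2400 bp. The score that the authors gave each island was whole-numbered and of unstated meaning. Divided by score in the same way, 70.9% (65.0 to 76.1) of the 254 Suz12F2 islands and 64.9% (60.9 to 68.7) of the 570 U6 islands of the highest class lay at a peak. In the lowest class the shares were 63.6% (58.6 to 68.4) of 363 and 41.6% (38.9 to 44.4) of 1206. The highest scores of all, 2484 in Suz12F2 and 2283 in U6, belonged to islands away from H3K4me3, while no island at a peak scored above 51 and 39.

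Member regions were mostly a few kb long, and H3K4me3 was found most often near their centre. Their median length was 3200 bp for both labels, 2600 bp for Suz12F2 only and 1800 bp for U6 only, with 12400 bp the longest. H3K4me3 filled a median of 39.6%, 42.5% and 49.7% of these regions. A point 100 bp from the centre of a region lay in H3K4me3 in 62.1% of regions of both labels, 56.4% of Suz12F2 only and 60.8% of U6 only, and at 4900 bp in under 1% of each (0.865%, 0.765% and 0.72%). H3K27ac followed the same narrow course, with 31.6%, 28.6% and 31.2% at 100 bp. H3K27me3 was broader, with 27.4%, 18.8% and 20.7% at 100 bp and 24.4%, 16.2% and 18.0% at 1100 bp.

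**Figure D1:**
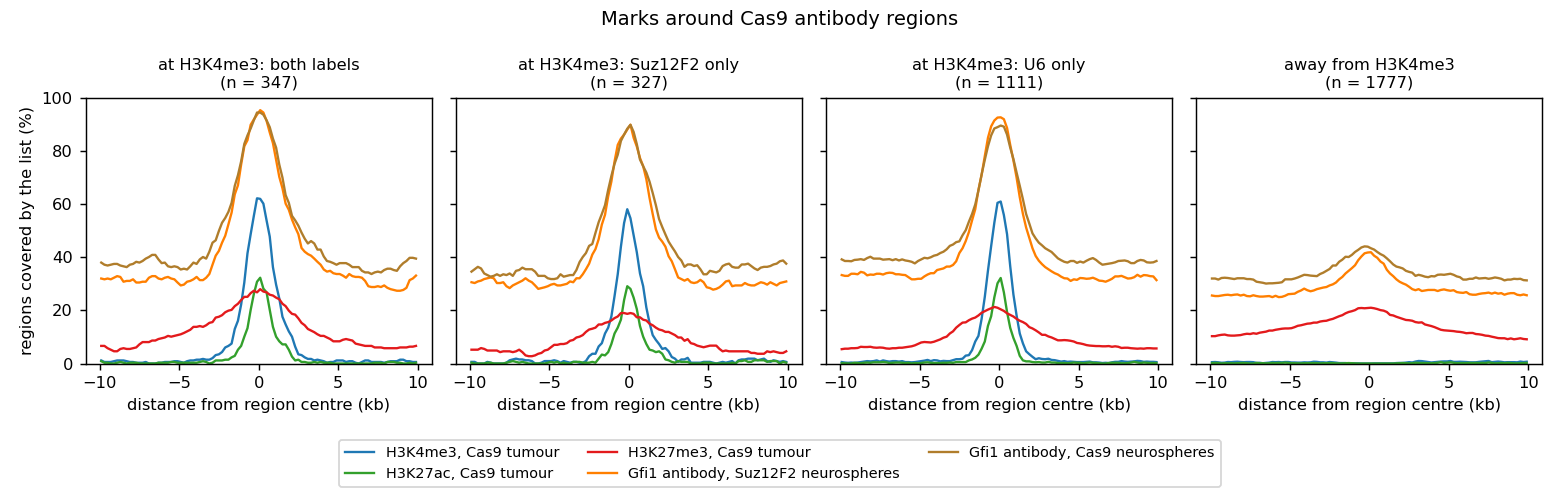
Percentage of merged Cas9 antibody regions (vertical axis) that are covered by each list at each distance from the region's centre (horizontal axis, kb), for the 3 classes of members and for regions away from H3K4me3. H3K4me3 and H3K27ac form narrow summits at the members, H3K27me3 a low and broad one, and Gfi1 antibody coverage stands at 89.0% to 94.5% at 100 bp from the centre of members and at 41.8% and 43.7% at regions away from H3K4me3.

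Regions of both labels, which join 2 islands and were longer, held more H3K4me3 per region but less per length, as the filled shares above give. They held at least 2 separate H3K4me3 peaks in 129 of 347 cases, or 37.2% (32.3 to 42.4), against 25.1% (20.7 to 30.0) for Suz12F2 only and 24.0% (21.6 to 26.6) for U6 only. The median H3K4me3 length per region was 1244 bp, 934 bp and 800 bp. H3K4me3 was used to choose the members, so these values are a description. Within the 347 regions of both labels, the Suz12F2 island had a median length of 2800 bp and the U6 island 2000 bp, and the Suz12F2 island was the longer one in 219 regions. The medians of the shared length were 60% of the Suz12F2 island and 85% of the U6 island.

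The overlap rule left few borderline cases. In 37 of the 1785 members the largest overlap with a peak was at most 200 bp, and the smallest was 96 bp, at chr7:116846001-116847400. Of the 1777 regions away from H3K4me3, 2 lay within 200 bp of a peak, 17 within 1000 bp and 108 within 5000 bp. The nearest of these, at chr11:87550601-87551000, ended 65 bp from a peak.

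H3K4me3 peaks with a Cas9 antibody island were wider than peaks without one. The median width was 806 bp (quartiles 377 and 1298) for both labels, 757 bp (508 and 1160) for Suz12F2 only and 756 bp (441 and 1113) for U6 only, against 573 bp (332 and 844) for peaks without an island and 601 bp for all peaks. Peaks of at least 1 kb made up 38.7% (34.6 to 42.9), 35.0% (30.6 to 39.7) and 32.4% (30.0 to 34.9) of the classes, and 18.9% of all H3K4me3 peaks. Seen from the peaks, 26.8% (25.4 to 28.3) of those of 890 bp or more had an island, 15.8% (14.6 to 17.0) of those from 602 to 889 bp, and 11.5% (10.5 to 12.6) and 11.6% (10.6 to 12.7) in the 2 narrower classes, 346 to 601 bp and 180 to 345 bp. The 4 classes of width hold about 25% of all peaks each. Since the H3K4me3 list was used to choose the members, these widths are a description.

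**Figure D2:**
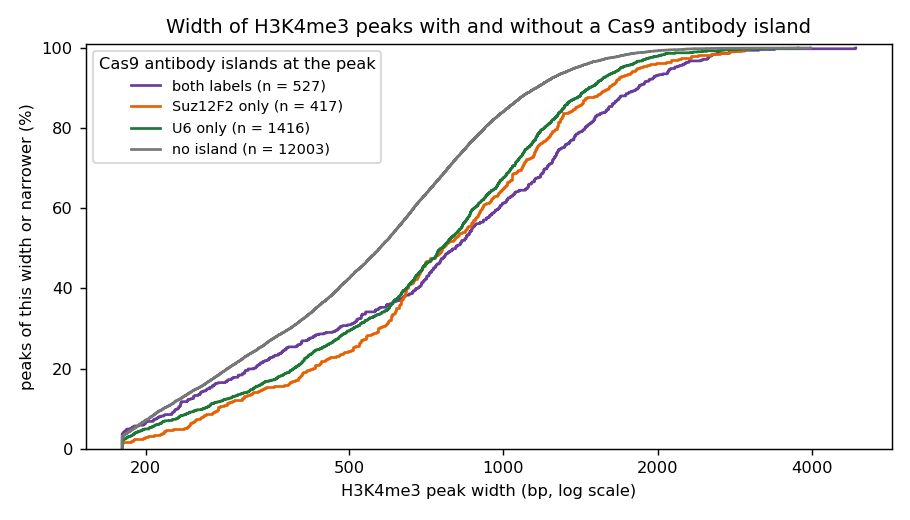
Share of H3K4me3 peaks of Cas9 tumour cells (vertical axis) at or below a given width (horizontal axis, bp, log scale), for peaks with islands of both labels, of Suz12F2 only, of U6 only and with no island. The 3 curves with islands run to the right of the curve without, whose median is 573 bp, over most of the range, and the curve of both labels crosses the other 2, with both more narrow and more wide peaks.

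The class of both labels was the most spread out in width. Its lower quartile of 377 bp was the lowest of the 3 classes and its upper quartile of 1298 bp the highest. Over all 3 classes together, peaks that shared a member region with another peak had a median width of 551 bp, against 916 bp for peaks alone in their region. The 3 widest peaks of the class of both labels were 4878, 3387 and 3154 bp wide. They lay at chr8:123605876-123610753, at chr17:4994070-4997456 and at chr13:63664446-63667599. All 3 held H3K27ac in Ezh2 knockout and in Cas9 tumour cells, and the widest one was also bivalent in Cas9 cells. The region on chromosome 13, from 63666201 to 63675600, covered 5 H3K4me3 peaks and an H3K27ac peak of 2977 bp in the knockout and 3060 bp in Cas9 cells.

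H3K27ac, from a library that the choice of members did not use, was somewhat more frequent at peaks with an island. It was called at 1333 of 2360 peaks with an island, or 56.5% (54.5 to 58.5), against 48.2% (47.3 to 49.1) of peaks without one and 49.5% of all H3K4me3 peaks. By class the shares were 53.3% (49.1 to 57.5) for both labels, 60.0% (55.2 to 64.5) for Suz12F2 only and 56.6% (54.0 to 59.2) for U6 only, so that the intervals of the classes overlap. Where H3K27ac was called, the longest acetylated stretch over a peak had a median of 533 bp at peaks with an island and 392 bp at peaks without. These lengths were not compared within classes of peak width.

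Within peaks of like width the higher share of acetylation was not seen. From 346 to 601 bp and from 602 to 889 bp the share was lower with an island, with overlapping intervals. Among peaks of 890 bp or more, 82.6% (80.0 to 84.8) of those with an island and 82.6% (81.1 to 84.0) of those without held H3K27ac. Over all peaks of this width it was 82.6%. From 602 to 889 bp the shares were 58.9% (54.8 to 62.9) with an island, 64.1% (62.4 to 65.8) without and 63.3% over all. From 346 to 601 bp they were 34.5% (30.1 to 39.2), 39.1% (37.4 to 40.8) and 38.6%, and from 180 to 345 bp 14.8% (11.7 to 18.6), 13.7% (12.6 to 15.0) and 13.8%. Width and acetylation thus moved together at all H3K4me3 peaks, whether or not an island was present.

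Bivalency was more frequent at peaks with an island, and this was seen in all 4 classes of width. H3K27me3 of Cas9 tumour cells overlapped 509 of 2360 peaks with an island, or 21.6% (20.0 to 23.3), against 10.7% (10.2 to 11.3) without one and 12.5% of all H3K4me3 peaks. Among the upper 50% of H3K4me3 scores the shares were 9.12% with an island and 5.04% without. By class the shares were 26.9% (23.3 to 30.9) for both labels, 18.2% (14.8 to 22.2) for Suz12F2 only and 20.6% (18.5 to 22.7) for U6 only. Among the narrowest peaks, 180 to 345 bp, 37.8% (33.3 to 42.5) with an island were bivalent, against 15.0% (13.8 to 16.3) without and 17.7% over all. From 346 to 601 bp the shares were 27.3% (23.2 to 31.8) with, 10.8% (9.75 to 11.9) without and 12.7% over all. From 602 to 889 bp they were 18.1% (15.1 to 21.4), 9.95% (8.93 to 11.1) and 11.2%. Among peaks of 890 bp or more they were 14.1% (12.1 to 16.5), 6.32% (5.46 to 7.32) and 8.42%. The longest H3K27me3 island over each bivalent peak had a median length of 5000 bp with a Cas9 antibody island and 4400 bp without. Neighbouring peaks can share an island, and the intervals, which treat peaks as independent, are then too narrow.

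**Figure D3:**
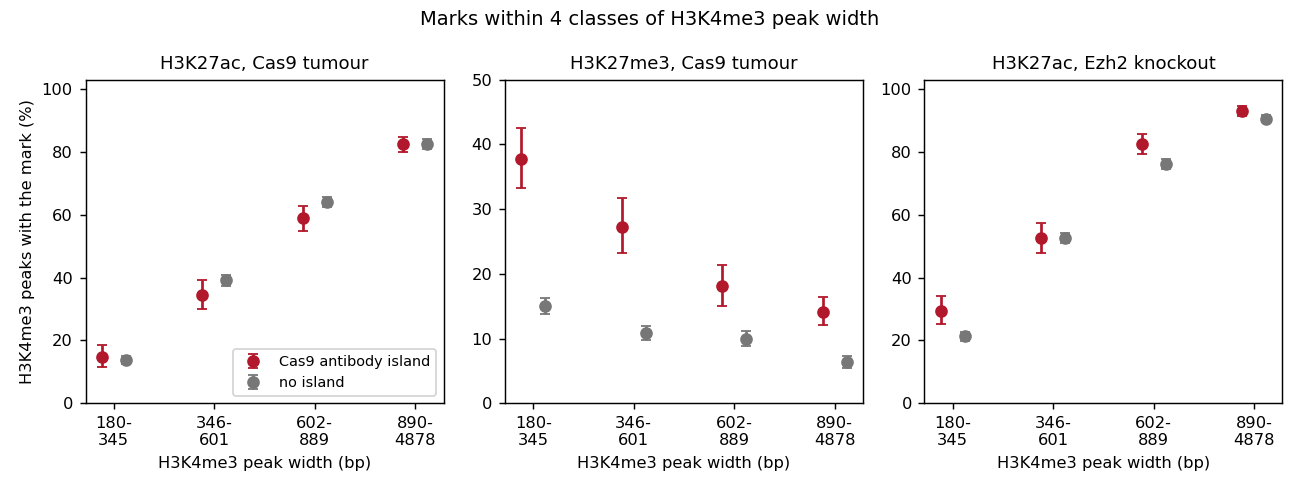
Percentage of H3K4me3 peaks that hold H3K27ac in Cas9 tumour cells, H3K27me3 in Cas9 tumour cells, and H3K27ac in the Ezh2 knockout (vertical axes, with different ranges), within 4 classes of peak width that hold about 25% of peaks each (horizontal axis, bp), for peaks with a Cas9 antibody island and without. Points are shares and bars Wilson 95% intervals. H3K27ac of Cas9 cells is close with and without an island in the narrowest and widest classes and lower with an island in the middle classes, with overlapping intervals. H3K27me3 is higher with an island at all 4 widths, from 37.8% against 15.0% in the narrowest class to 14.1% against 6.32% in the widest.

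Bivalency was higher and acetylation lower at longer member regions. Among the peaks of the shortest regions, 400 to 1400 bp, 14.3% (11.7 to 17.5) were bivalent and 67.1% (63.1 to 70.9) acetylated. In the longest regions, 3400 to 12400 bp, 30.7% (27.2 to 34.4) were bivalent and 45.9% (42.1 to 49.8) acetylated. The classes of 1600 to 2200 bp and 2400 to 3200 bp gave 18.8% and 21.5% bivalent, and 57.9% and 56.4% acetylated. The median peak width was 833, 785, 750 and 703 bp from the shortest to the longest regions. By score the order was less plain, with 26.3% (22.8 to 30.1) bivalent at U6 islands scoring 16 or more and 20.1% (17.1 to 23.5) at those scoring 8 to 11. For Suz12F2 the values were 22.5% (18.0 to 27.8) at scores of 21 or more and 19.1% (14.9 to 24.1) at scores of 10 to 15. The Suz12F2 classes between stood higher, at 25.8% (19.6 to 33.2) for scores 16 to 17 and 26.8% (21.2 to 33.3) for 18 to 20. The U6 classes between stood at 17.1% (12.6 to 22.8) for score 12 and 22.9% (19.6 to 26.6) for 13 to 15.

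Sorted by both marks, peaks with an island were less often without either. H3K27me3 without H3K27ac was held by 19.8% (18.2 to 21.4) of peaks with an island, against 11.6% of all H3K4me3 peaks and 10.0% (9.50 to 10.6) of peaks without an island. Neither mark was held by 23.7% (22.1 to 25.5), against 38.8% of all peaks and 41.8% (40.9 to 42.7) without an island. H3K27ac without H3K27me3 was held by 54.7% (52.7 to 56.7), against 48.7% of all peaks. Both marks at once were rare, at 42 of 2360 peaks or 1.78% (1.32 to 2.40), against 0.877% of all peaks. Of the 527 peaks of both labels 19 had both marks, or 3.61% (2.32 to 5.56), against 0.959% (0.374 to 2.44) of Suz12F2 only and 1.34% (0.861 to 2.09) of U6 only.

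**Figure D4:**
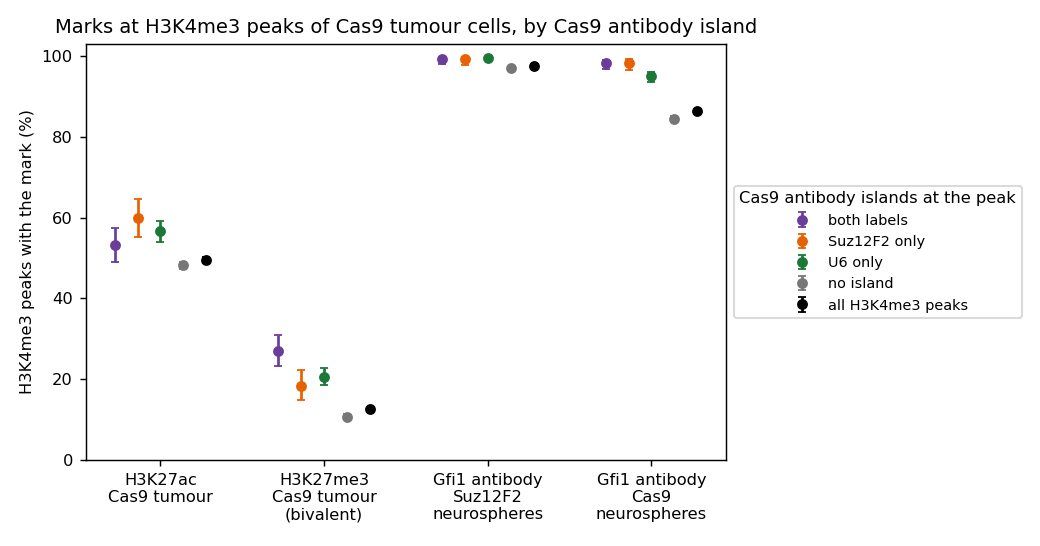
Percentage of H3K4me3 peaks of Cas9 tumour cells (vertical axis) that overlap H3K27ac or H3K27me3 of the same cells or Gfi1 antibody islands of Suz12F2 and Cas9 neurospheres, by class of Cas9 antibody island, with peaks without an island and all peaks beside them. Points are shares and bars Wilson 95% intervals; H3K27me3 stands at 18.2% to 26.9% in the 3 classes and at 10.7% without an island, and Gfi1 antibody islands cover over 84% in every group.

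Among the few members at the very top of the scores, most were bivalent. Of the 15 regions picked by score, 5 per class, 11 covered a bivalent peak (4, 3 and 4 of 5 for both labels, Suz12F2 only and U6 only) and 8 an acetylated one. Over all 1785 members, 24.3% met H3K27me3 anywhere in the region. At the peaks met by islands of the whole highest score class, 26.3% were bivalent for U6 and 22.5% for Suz12F2. H3K27ac met 65.6% (63.4 to 67.8) of all members, a larger share than 8 of 15. The 15 regions were 3400 to 11000 bp long, against a median of 2200 bp over all members. The highest-ranked region of both labels lay at chr11:74978401-74985200, ranked 26 in the Suz12F2 list and 48 in the U6 list. It held 2 H3K4me3 peaks, the wider one 1184 bp, and was met by an H3K27me3 island of 8800 bp and an H3K27ac peak of 263 bp in Cas9 cells. In the knockout the H3K27ac peak there was 661 bp long, and an H3K27me3 island of 2800 bp met the region but not its H3K4me3 peaks. The next region, at chr1:88420601-88427800, was not bivalent and held a broad active peak of 2961 bp, with H3K27ac over 1547 bp in the knockout and 2097 bp in Cas9 cells. At chr5:111844201-111851400, a 1990 bp H3K4me3 peak carried H3K27me3 and H3K27ac in both kinds of tumour cell.

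Some high-scoring members lay in long Polycomb domains with little H3K4me3. The region of both labels at chr8:72403201-72414200 was 11000 bp long and covered an H3K4me3 peak of 180 bp, the narrowest width in the list. H3K27me3 islands there measured 10000 bp in the knockout and 17200 bp in Cas9 cells, and the H3K4me3 peak was not called in the knockout. A U6 only region at chr11:82742401-82748400 had the same make-up, with a 180 bp peak and H3K27me3 islands of 6800 bp in the knockout and 8000 bp in Cas9 cells. By contrast, the region of both labels at chr11:97488401-97492000 held 3 H3K4me3 peaks and no H3K27me3 in the knockout, where its H3K27ac peak measured 873 bp, against 226 bp in Cas9 cells.

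Suz12F2 only and U6 only members showed both kinds of peak. Among the Suz12F2 only members, the region at chr11:120682001-120691400, 9400 bp long, held an acetylated peak of 2142 bp. The regions at chr9:95302001-95308400, at chr5:34064001-34070000 and at chr2:33494601-33501600 were bivalent and without H3K27ac in either kind of tumour cell. The region at chr2:17966601-17975400 was acetylated in both. Among U6 only members, the peaks at chr15:81522201-81525600 and at chr2:25429401-25436400 were bivalent in Cas9 cells and acetylated in the knockout but not in Cas9 cells. The region at chr4:109650201-109655200 was bivalent and acetylated, and that at chr5:139225401-139232000 held a 2061 bp acetylated peak. In the knockout, H3K27me3 islands of 3800 bp and 6600 bp met the U6 only regions on chromosomes 2 and 4, but not their H3K4me3 peaks. None met that on chromosome 15.

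Gfi1 antibody islands covered nearly all members, as they did nearly all H3K4me3 peaks. In Suz12F2 neurospheres they met 99.5% (99.1 to 99.7) of peaks with an island, against 97.1% (96.8 to 97.4) without and 97.5% of all H3K4me3 peaks. In Cas9 neurospheres the shares were 96.3% (95.5 to 97.0) with an island, 84.5% (83.8 to 85.1) without and 86.4% of all peaks. Gfi1 antibody islands of Cas9 neurospheres met 98.3% (96.8 to 99.1) of the peaks of both labels, 98.3% (96.6 to 99.2) of Suz12F2 only and 95% (93.7 to 96.0) of U6 only. The lists themselves were broad, covering 294 Mb in Suz12F2 and 368 Mb in Cas9 neurospheres. Peaks outside the Gfi1 antibody islands of both labels numbered 7 of 2360, or 0.297% (0.144 to 0.611), against 2.10% of all H3K4me3 peaks.

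The longest Gfi1 antibody island over a peak was longer at the median for members than for other peaks. In Suz12F2 neurospheres this median was 4000 bp at peaks with a Cas9 antibody island and 3000 bp at peaks without, and in Cas9 neurospheres 4800 bp and 4200 bp. These lengths were not compared within classes of peak width, and a long island counts at every peak it covers. Whole member regions met Gfi1 antibody islands in 1783 of 1785 cases in Suz12F2 neurospheres and 1715 in Cas9 neurospheres. The 2 members outside both lists were U6 only regions at chr4:147221201-147224400 and at chr14:7725201-7727000, named after their values were seen. Neither had H3K27ac or H3K27me3 in either kind of tumour cell. The Cas9 and Gfi1 antibodies were used on separate libraries of neurospheres.

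After Ezh2 loss most members kept H3K4me3. A peak was called in the knockout at 91.1% (89.8 to 92.1) of peaks with an island, against 84.3% (83.7 to 85.0) without and 85.4% of all H3K4me3 peaks. By class the shares were 87.3% (84.2 to 89.9) for both labels, 93.3% (90.5 to 95.3) for Suz12F2 only and 91.8% (90.3 to 93.1) for U6 only. Within classes of width the intervals were apart only at the narrowest peaks, 180 to 345 bp. There the shares were 59.6% (54.8 to 64.2) with an island and 52.7% (50.9 to 54.4) without. This class held 418 of the 2360 peaks with an island and 3180 of the 12003 without. The groups compared over all peaks thus differ in width. In the 3 wider classes the shares were 91.5%, 99.1% and 99.8% with an island and 89.8%, 98.6% and 99.7% without, with overlapping intervals. Knockout cells had H3K27ac at 72.2% (70.4 to 74.0) of peaks with an island, against 58.6% (57.7 to 59.4) without and 60.8% of all peaks. H3K27me3 was called there at 3.05% (2.43 to 3.82), against 1.27% (1.08 to 1.48) without and 1.56% of all peaks. By width, from narrow to wide, H3K27ac of the knockout was found at 29.4% (25.3 to 34.0), 52.7% (47.8 to 57.4), 82.7% (79.3 to 85.6) and 93.0% (91.3 to 94.5) of peaks with an island. Without an island the shares were 21.3% (19.9 to 22.7), 52.6% (50.9 to 54.3), 76.3% (74.7 to 77.7) and 90.6% (89.5 to 91.7), so the intervals were apart in the narrowest class and in that of 602 to 889 bp.

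Peaks without H3K27ac and H3K27me3 in Cas9 cells were more often acetylated in the knockout where they had an island. In the knockout 38.9% (35.0 to 43.0) of the 560 such peaks with an island had H3K27ac, against 24.4% (23.2 to 25.6) of those without an island and 25.9% of all such peaks. Within the 4 classes of width, from narrow to wide, the shares were 17.2%, 38.4%, 61.8% and 58.2% with an island, against 11.0%, 28.6%, 42.6% and 51.5% without. An H3K4me3 peak was found in the knockout at 76.2% (72.6 to 79.6) of the 560, against 69.4% (68.1 to 70.6) of those without an island and 70.1% of all such peaks. H3K27me3 was there at 0.714% (0.278 to 1.82), against 0.518% (0.354 to 0.758) without and 0.538% of all such peaks. In the widest class, with 67 peaks with an island, the intervals of 46.3 to 69.3 and 46.2 to 56.7 overlap. The 3 highest-ranked regions of both labels whose peaks had neither mark lay at chr19:26679401-26684200, at chr2:26357201-26361200 and at chr13:47136201-47139800. All 3 had H3K27ac in the knockout, with peaks of 248, 364 and 182 bp.

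Bivalent peaks with an island and other bivalent peaks had overlapping intervals for H3K27ac in the knockout. Of the 467 peaks with H3K27me3 and without H3K27ac in Cas9 cells, 39.8% (35.5 to 44.3) had H3K27ac in the knockout, against 35.7% (33 to 38.4) without an island and 36.8% of all such peaks. By width, from narrow to wide, the shares were 21.5%, 25.9%, 56.2% and 68.3% with an island and 14.9%, 36.1%, 52.5% and 77.1% without, so that the direction turned in 2 of the 4 classes. U6 only peaks stood at 45.2% (39.4 to 51.2), Suz12F2 only peaks at 33.3% (23.5 to 44.8) and peaks of both labels at 31.7% (24.1 to 40.4). H3K27me3 was still called in the knockout at 13.1% (10.3 to 16.4) of the 467, against 7.73% (6.35 to 9.38) without an island and 9.22% of all such peaks. H3K4me3 was there at 89.7% (86.6 to 92.2), against 86.3% (84.2 to 88.1) without and 87.2% of all such peaks. Of the 1291 peaks with H3K27ac alone in Cas9 cells, 97.4% (96.4 to 98.2) were acetylated in the knockout, against 93.0% (92.3 to 93.6) without an island and 93.8% of all such peaks. By width, from narrow to wide, the shares were 88.7%, 89.4%, 98.8% and 99.1% with an island, against 81.8%, 88.0%, 93.7% and 97.5% without. The intervals overlapped in the classes up to 601 bp. H3K4me3 was called in the knockout at 97.7% (96.7 to 98.4) of the 1291 peaks, against 96.9% (96.4 to 97.3) without and 97.1% of all such peaks. For H3K27me3 the shares were 0.31% (0.121 to 0.794), 0.404% (0.269 to 0.605) and 0.386%. All 42 peaks with both marks and an island held H3K4me3 and H3K27ac in the knockout, as did 99.2% and 95.2% of all peaks with both marks, and 3 of the 42 held H3K27me3, against 10.3% of all.

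**Figure D5:**
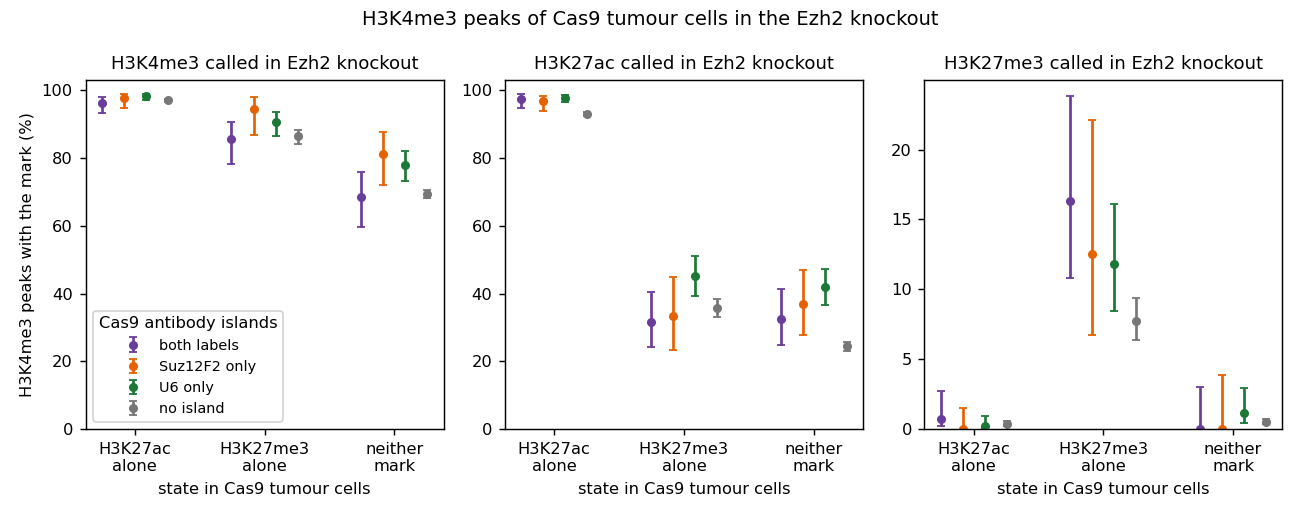
Percentage of H3K4me3 peaks of Cas9 tumour cells (vertical axes, with different ranges) at which H3K4me3, H3K27ac or H3K27me3 was called in the Ezh2 knockout, grouped by the marks held in Cas9 cells (horizontal axis) and by class of Cas9 antibody island. Points are shares and bars Wilson 95% intervals; peaks with neither mark had H3K27ac in 32.5% to 41.8% with an island and 24.4% without, and peaks with H3K27me3 alone had H3K27me3 in 11.8% to 16.3% with an island and 7.73% without.

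H3K4me3 peaks were mostly narrower in the knockout, at members and at other peaks. Among peaks with a single partner in each list, the median width with an island was 743 bp in the knockout and 800.5 bp in Cas9 cells (1708 peaks). Without an island it was 547 bp in the knockout and 633 bp in Cas9 cells (8467 peaks). The median ratio of knockout to Cas9 width was 0.93 with an island and 0.894 without, and 65.9% (63.6 to 68.1) and 69.0% (68.0 to 70.0) of peaks were narrower, against 68.5% of all such peaks. Peaks with H3K27me3 alone in Cas9 cells went the other way, with a median ratio of 1.08 with an island and 1.03 without. At peaks with H3K27ac alone it was 0.916 and 0.888.

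With lists of equal number the range over the 3 classes was somewhat narrower, but Suz12F2 only and U6 only lay further apart. With the full lists, Suz12F2 only and U6 only were bivalent at 18.2% and 20.6% and acetylated at 60.0% and 56.6%. Their median widths were 757 and 756 bp. Trimming the U6 list left 196 members of both labels, 476 of Suz12F2 only and 429 of U6 only. The bivalent shares were then 28.2% (23.6 to 33.4), 20.5% (17.5 to 23.9) and 23.6% (20.3 to 27.2), and the H3K27ac shares 53.0% (47.5 to 58.4), 58.3% (54.4 to 62.1) and 53.3% (49.3 to 57.3). Median H3K4me3 widths were 781, 780 and 751 bp, so that both labels and Suz12F2 only were level, and the H3K27ac share of U6 only was level with that of both labels. The intervals of the Suz12F2 only and U6 only classes overlap for both marks. These intervals carry counting error over peaks only. Without replicate libraries, whether the labels differ could not be tested. Depth is unknown for all libraries, so the part of depth in the number of islands cannot be told apart from the label.

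Members differed from the other regions of the same 2 lists, which lay away from H3K4me3. Gfi1 antibody islands of Suz12F2 neurospheres met 99.9% (99.6 to 100.0) of members, against 48.4% (46.1 to 50.7) of regions away, and those of Cas9 neurospheres 96.1% (95.1 to 96.9) against 49.6% (47.3 to 51.9). Members lie at H3K4me3 by rule, and the same 2 Gfi1 antibody lists met 97.5% and 86.4% of all H3K4me3 peaks. At H3K4me3 peaks without a Cas9 antibody island the shares were 97.1% and 84.5%, so high shares were not particular to members. H3K27me3 of Cas9 cells met 24.3% (22.3 to 26.3) of members and 23.8% (21.9 to 25.8) of regions away, with overlapping intervals, but the classes differed. For both labels the shares were 31.1% (26.5 to 36.2) of members and 44.3% (34.8 to 54.2) of regions away, for Suz12F2 only 20.5% (16.5 to 25.2) and 14.3% (10.6 to 18.9), and for U6 only 23.2% (20.8 to 25.8) and 24.2% (22.1 to 26.5). In the knockout it met 4.37% (3.52 to 5.42) of members and 11.6% (10.2 to 13.2) of regions away. Islands of Suz12F1 met 0.056% (0.00989 to 0.317) of members and 1.01% (0.642 to 1.60) of regions away. The median length over all classes was 2200 bp for members and 2600 bp for regions away. For both labels members had 3200 bp and regions away 3000 bp, for Suz12F2 only 2600 bp and 4200 bp, and for U6 only 1800 bp and 2400 bp.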

How the data were processed

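Chromatin immunoprecipitation libraries were sequenced from tumour cells and neurospheres, and 11 deposited lists of enriched regions, each called on 1 library, were used; the 3 input libraries were not used here. SICER 1.1, SAMtools, Picard, BWA 0.5.9-r26, R 2.14.0 and build mm9 are named, with no role given, per the submitters' processing notes. Island lists have a 200 bp window, a 600 bp gap and a false discovery rate of 0.00001, per the deposited names; the sources used here name no caller for the narrow H3K4me3 and H3K27ac peaks. The score of each region in the deposited lists is the authors' own, of unstated meaning, and served to rank regions within a list. Island ends count the last base from 0, so 1 bp was added. Overlap meant at least 1 bp, computed with Python 3.11.15, numpy 2.4.6 and statsmodels 0.14.6, and figures with matplotlib 3.10.9. Of 24 overlap sets, 0 differed from bedtools 2.31.1, and planted overlaps were recovered on simulated data. Shares carry Wilson 95% intervals for counting error only; with 1 library per group no p-value was computed, and read depth is unknown.

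Named regions were, per class, the 5 with the highest scores (for both labels, the lowest sum of ranks), the 3 highest-ranked bivalent ones, and, for both labels, the 3 highest-ranked with neither mark, the 3 outside Gfi1 antibody islands (0 were found) and the 3 widest peaks. Width classes divide the 14363 peaks at the quartiles of width. The members, classes and comparisons were chosen with earlier results of these data known. The splits by length and score of the islands and by marks held were added after values were seen.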

Additional observations from a re-analysis of the deposited data

How the results depend on the processing

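Over 11 results and 8 alternatives, 64 of 88 values stayed within the counting interval (the number of members, within 1.5 times) and 24 moved. Only peak width and the shares of H3K27ac, H3K27me3 and Gfi1 antibody islands have a value for peaks without an island. In 0 of these did peaks with an island change sides relative to peaks without. The split by peak width was not among the alternatives. Within it H3K27ac of Cas9 cells was lower with an island from 346 to 601 bp (34.5% against 39.1%) and from 602 to 889 bp (58.9% against 64.1%), with overlapping intervals. Leaving out islands that met a Suz12F1 island, autosomes alone, and joining islands across gaps of up to 1 kb moved 0 of 11 each. These alternatives gave 1784, 1783 and 1781 members against 1785, so they changed the regions very little and could hardly move a value. With the upper 50% of Cas9 antibody scores, members numbered 1150, 15.8% were of both labels, 54.4% of U6 islands lay at H3K4me3 and 11.2% of peaks had an island. With 50% of the shorter region covered, 15.5% of peaks had an island. With the U6 list trimmed to the number of the Suz12F2 list, members numbered 1101, 59.6% of U6 islands lay at H3K4me3, 10.6% of peaks had an island, 23.3% of these were bivalent, 97.7% met Gfi1 antibody islands of Cas9 neurospheres and 70.1% had H3K27ac in the knockout. With the upper 50% of H3K4me3 scores, 49.2% of Suz12F2 and 38.2% of U6 islands lay at a peak and 20.0% of peaks had an island. These were 1028 bp wide at the median, 80.3% held H3K27ac, 9.12% were bivalent (5.04% without an island), 99.9% met Gfi1 antibody islands of Suz12F2 neurospheres and 92.8% had H3K27ac in the knockout. With H3K4me3 peaks within 1 kb joined, chosen after seeing the data, the median width was 1114 bp, 65.5% held H3K27ac, 23.9% were bivalent (12.2% without), 99.9% met Gfi1 antibody islands of Suz12F2 neurospheres and 82.8% had H3K27ac in the knockout. The cause of these shifts was not tested beyond the fewer or joined regions themselves. No paired analysis was possible because each group held 1 library. Sequence features of the members were planned but not run, since no mm9 genome was used here.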

Other observations

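Some Cas9 antibody regions lay where H3K4me3 was called in the Ezh2 knockout but not in Cas9 tumour cells. Of the 1777 regions away from H3K4me3 of Cas9 cells, 93 were of this kind, or 5.23% (4.29 to 6.37). By class they were 14 of 97 regions of both labels, or 14.4% (8.80 to 22.8), 10 of 273 of Suz12F2 only, or 3.66% (2.00 to 6.61), and 69 of 1407 of U6 only, or 4.90% (3.89 to 6.16). H3K27me3 of Cas9 cells covered 85 of the 93, or 91.4% (83.9 to 95.6), against 23.8% of all 1777 regions away, and all 14 regions of both labels. Knockout cells had H3K27ac at 19 of the 93, and at 28 of the 1777, or 1.58% (1.09 to 2.27). Neither mark was counted over all H3K4me3 peaks called only in the knockout. The shares at the 93 thus cannot be called particular to Cas9 antibody regions.

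Members, like the Cas9 antibody lists as a whole, were nearly absent from chromosome X. Of 351 H3K4me3 peaks there 2 had a Cas9 antibody island, or 0.57% (0.156 to 2.05), while on the autosomes the share ran from 8.80% on chromosome 18 to 22.5% on chromosome 14. The 2 members, named after their values were seen, were a U6 only region from 75041001 to 75043400 and a Suz12F2 only region from 99044001 to 99045600. Chromosome X held 0.112% of members and 0.563% of the regions away from H3K4me3. It held 0.573% of all Suz12F2 islands, 0.27% of U6 islands and 0.109% of Suz12F1 islands, against 2.44% of H3K4me3 peaks. Lists of other antibodies also met a smaller share of these 351 peaks than of all H3K4me3 peaks. Gfi1 antibody islands met 89.2% (85.5 to 92.0) in Suz12F2 neurospheres, against 97.5% of all peaks, and 42.2% (37.1 to 47.4) in Cas9 neurospheres, against 86.4%. H3K27ac of Cas9 cells met 29.6% (25.1 to 34.6), against 49.5%, and H3K27me3 of Cas9 cells 3.42% (1.97 to 5.88), against 12.5%.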
